A study of Mus musculus with 19 samples.

Results

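Brain-derived neurotrophic factor (Bdnf), its relative Ntf3, the neurotrophin receptors Ntrk2, Ntrk3 and Ngfr, the sorting receptor Sort1 and the secreted peptide precursor Vgf were followed through all probe sets that the array's gene table gives to one of these 7 symbols alone. That gave 25 of the 45101 probe sets on the array, for 6 of the 18193 genes named by a probe set of their own. Of the 25, 8 each were for Ntrk2 and Ntrk3, 3 each for Ngfr and Sort1, 2 for Bdnf, 1 for Vgf and 0 for Ntf3, which the table does not name. The genes were selected on an earlier result of these data, a lower Bdnf intensity in SCA3 brains given CCI-779 than in SCA3 brains given placebo, so values for that contrast are described here and not tested.

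The 19 arrays measured whole-brain RNA of male mice in 4 groups: SCA3 transgenic mice given CCI-779 (5 arrays), SCA3 transgenic mice given placebo (5), wild-type (wt) mice given CCI-779 (5) and wt mice given placebo (4). SCA3 stands for spinocerebellar ataxia type 3, the disease of an expanded CAG repeat in the ataxin-3 gene. The promoter, repeat length, line and strain background of the transgene are not given in the sources used here. CCI-779 (temsirolimus) is an ester of rapamycin and inhibits the kinase complex mTORC1. Intraperitoneal injections of 20 mg/kg, or of placebo on the same schedule, began when the mice were 5 weeks old and went on 3 times weekly for 6 weeks. Since the labels do not tell if an array stands for a mouse of its own, the spread behind each p-value is that of the arrays and may be technical.

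Neurotrophins are secreted growth factors that neurons make as proneurotrophins and cleave to the mature form. Mature BDNF acts on the receptor tyrosine kinase TrkB, the product of Ntrk2, and neurotrophin-3 acts mainly on TrkC, the product of Ntrk3; both switch on the Ras-ERK, PI3K-AKT and PLCgamma pathways. Ngfr encodes p75NTR, a receptor without kinase activity that binds proneurotrophins together with sortilin (Sort1), and Vgf is a neuropeptide precursor whose transcription BDNF induces in cultured neurons.

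Transcription of Bdnf begins at several alternative starts, each with its own promoter, and CREB, which binds the sequence TGACGTCA (the cAMP response element, CRE), is known to drive an activity-dependent one. RefSeq promoters on GRCm38.p6 were matched for 4 of the 7 genes, with 7 starts for Bdnf, 2 for Ntf3 and 1 each for Ntrk2 and Ngfr. The 250 bases before the first and the third of the Bdnf starts by position and before the Ntrk2 start are shown. The third is the only one of the 7 Bdnf windows that held the CRE half-site marked below. No source used here says which Bdnf transcripts the 2 Bdnf probe sets read, so their values are not assigned to any of the starts. The windows shown lie on the plus strand at chr2:109674450-109674699, chr2:109692186-109692435 and chr13:58806319-58806568. Capitals mark the one match to the CRE half-site CGTCA or its complement TGACG.
Bdnf, first start: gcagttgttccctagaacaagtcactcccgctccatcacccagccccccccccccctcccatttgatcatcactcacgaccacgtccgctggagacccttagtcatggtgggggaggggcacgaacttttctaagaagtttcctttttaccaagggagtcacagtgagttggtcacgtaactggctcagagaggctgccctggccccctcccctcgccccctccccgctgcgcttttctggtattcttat
Bdnf, the third start: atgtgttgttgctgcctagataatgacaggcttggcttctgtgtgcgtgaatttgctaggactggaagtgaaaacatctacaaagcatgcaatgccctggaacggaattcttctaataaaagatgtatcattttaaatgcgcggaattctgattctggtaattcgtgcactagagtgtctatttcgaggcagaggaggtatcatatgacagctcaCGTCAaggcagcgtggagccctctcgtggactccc
Ntrk2: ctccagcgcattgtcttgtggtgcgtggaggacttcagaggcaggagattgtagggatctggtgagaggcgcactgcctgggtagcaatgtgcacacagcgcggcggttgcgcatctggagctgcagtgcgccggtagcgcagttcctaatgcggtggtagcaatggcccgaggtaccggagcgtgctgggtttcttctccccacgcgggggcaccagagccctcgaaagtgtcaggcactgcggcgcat
None of the 7 Bdnf windows held the exact letters TGACGTCA of the full CRE. Of 32851 RefSeq promoter windows of this length, 1.55% held them on either strand. The half-site stood in 1 of the 7 Bdnf windows, beginning 35 bases before the third start, and in 17.8% of all windows. The E-box CACGTG, which USF factors bind, stood in none of the 7 and in 6.02% of all windows. Searches were for exact letters on both strands, and a full CRE also counts as a half-site. Sites that depart from these letters were not searched for. The counts therefore do not tell if a Bdnf promoter holds a site that CREB binds.

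Values are log2 of the deposited GCRMA intensity. A probe set was tested where its mean over all 19 arrays was at least 4, which kept 20473 probe sets and 17 of the 25 described here: 6 of Ntrk2, 4 of Ntrk3, 3 of Sort1, 2 of Bdnf and 1 each of Ngfr and Vgf. The 8 that were not tested had means of 2.04 to 3.25, near the lowest signals on the array, and were 4 of Ntrk3 (1447723_at, 1425070_at, 1426003_at and 1443970_at), 2 of Ntrk2 (1444121_at and 1420837_at) and 2 of Ngfr (1450177_at and 1421241_at). Levels are compared only within a probe set. Adjusted p-values are from limma, with Benjamini-Hochberg adjustment over all 20473 probe sets.

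Mean intensity per array was 434 to 463, no pair of arrays held identical values, and the number of arrays limits the precision. The hybridization spike-in controls, which carry no mouse RNA, averaged 10.44 to 10.65 log2 on SCA3 CCI-779 arrays against 11.19 to 11.60 on SCA3 placebo arrays, and 9.97 to 10.65 on wt CCI-779 arrays against 10.88 to 11.49 on wt placebo arrays. The drug groups thus lay apart from the placebo groups in controls that do not come from the brain. These values were read after GCRMA normalization and so may depend on the other signals of each array. The part of this difference in the results below was not tested. The 3′ minus 5′ GAPDH signal, a sign of RNA quality, also lay apart: it was -0.43 to -0.28 log2 in SCA3 CCI-779 against -0.53 to -0.47 in SCA3 placebo, and -0.44 to 0.28 in wt CCI-779 against -0.58 to -0.50 in wt placebo. Its part in the results was not tested. Other departures touch the values below: wt CCI-779 replicate 1 had a 3′ minus 5′ actin signal of 2.55 log2, against 1.20 to 1.53 on the other wt CCI-779 arrays, and SCA3 CCI-779 replicates 2 and 5 had 0.96 and 0.88, against 1.44 to 1.55 on the other SCA3 CCI-779 arrays. All 10 astrocyte, 7 of 7 inhibitory neuron and 10 of 11 oligodendrocyte markers looked for had a tested probe set, against 9 of 12 for cerebellum, 5 of 9 for endothelium, 3 of 9 for brainstem and hindbrain and 3 of 8 for hypothalamus. The mouse Atxn3 probe set 1434408_at differed by -0.14 log2 between SCA3 and wt under placebo (adjusted p = 0.961); no source used here says if it detects the transgene.

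Bdnf was the member with the largest difference between CCI-779 and placebo in SCA3 brains, and its signal was also lower under CCI-779 in wt brains, where it did not pass the test. Bdnf probe set 1422168_a_at read 6.30, 5.67, 7.00, 6.49 and 7.06 log2 on the 5 SCA3 CCI-779 arrays, against 7.59, 7.17, 7.13, 7.77 and 7.80 on the 5 SCA3 placebo arrays. Every SCA3 CCI-779 array lay below every SCA3 placebo array, and replicate 2 was the lowest of all 19. The group means were 6.50 ± 0.57 in SCA3 CCI-779 and 7.49 ± 0.32 in SCA3 placebo (SD, n = 5 each), a difference of -0.99 (SE 0.21), or 1.99-fold lower; this is the contrast that chose the gene and it carries no test here.

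In wt brains the same probe set read 7.17, 6.96, 6.94, 7.15 and 6.95 log2 under CCI-779, against 7.37, 7.54, 7.43 and 7.82 under placebo. These groups did not overlap either, with every wt CCI-779 array below every wt placebo array. The means were 7.03 ± 0.12 under CCI-779 (SD, n = 5) and 7.54 ± 0.20 under placebo (n = 4), a difference of -0.51 (SE 0.22, 95% confidence interval -0.98 to -0.04, adjusted p = 0.139). The call depends on the other arrays in the fit: with only the 9 wt arrays the adjusted p was 0.0262, and without SCA3 CCI-779 replicates 2 and 5 it was 0.0463, at the same difference.

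The order of the Bdnf group means was SCA3 CCI-779, wt CCI-779, SCA3 placebo and wt placebo, from low to high. The upper neighbours in that order, SCA3 placebo and wt placebo, differed by -0.05 (SE 0.22, adjusted p = 1). SCA3 CCI-779 lay below wt CCI-779 by -0.53 (SE 0.21, 95% confidence interval -0.97 to -0.09, adjusted p = 0.254), a contrast that holds the arrays on which the gene was chosen. The difference between the drug effects in SCA3 and in wt was -0.48 (SE 0.31, 95% confidence interval -1.13 to 0.16, adjusted p = 0.73), so the effects in the 2 genotypes were not told apart.

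The second Bdnf probe set, 1422169_a_at, lay near the filter and moved less. It read 5.12, 5.13, 5.11, 4.69 and 5.13 log2 in SCA3 CCI-779 and 5.31, 5.13, 4.92, 5.32 and 5.22 in SCA3 placebo, a difference of -0.14. In wt brains it read 5.11, 5.12, 4.84, 5.12 and 4.64 under CCI-779 and 5.03, 5.12, 5.41 and 5.41 under placebo, a difference of -0.28 (adjusted p = 0.151). Both pairs of groups overlapped. Over the 19 arrays the 2 Bdnf probe sets correlated at r = 0.46, and after subtracting the group means at r = 0.29.

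**Figure D1:**
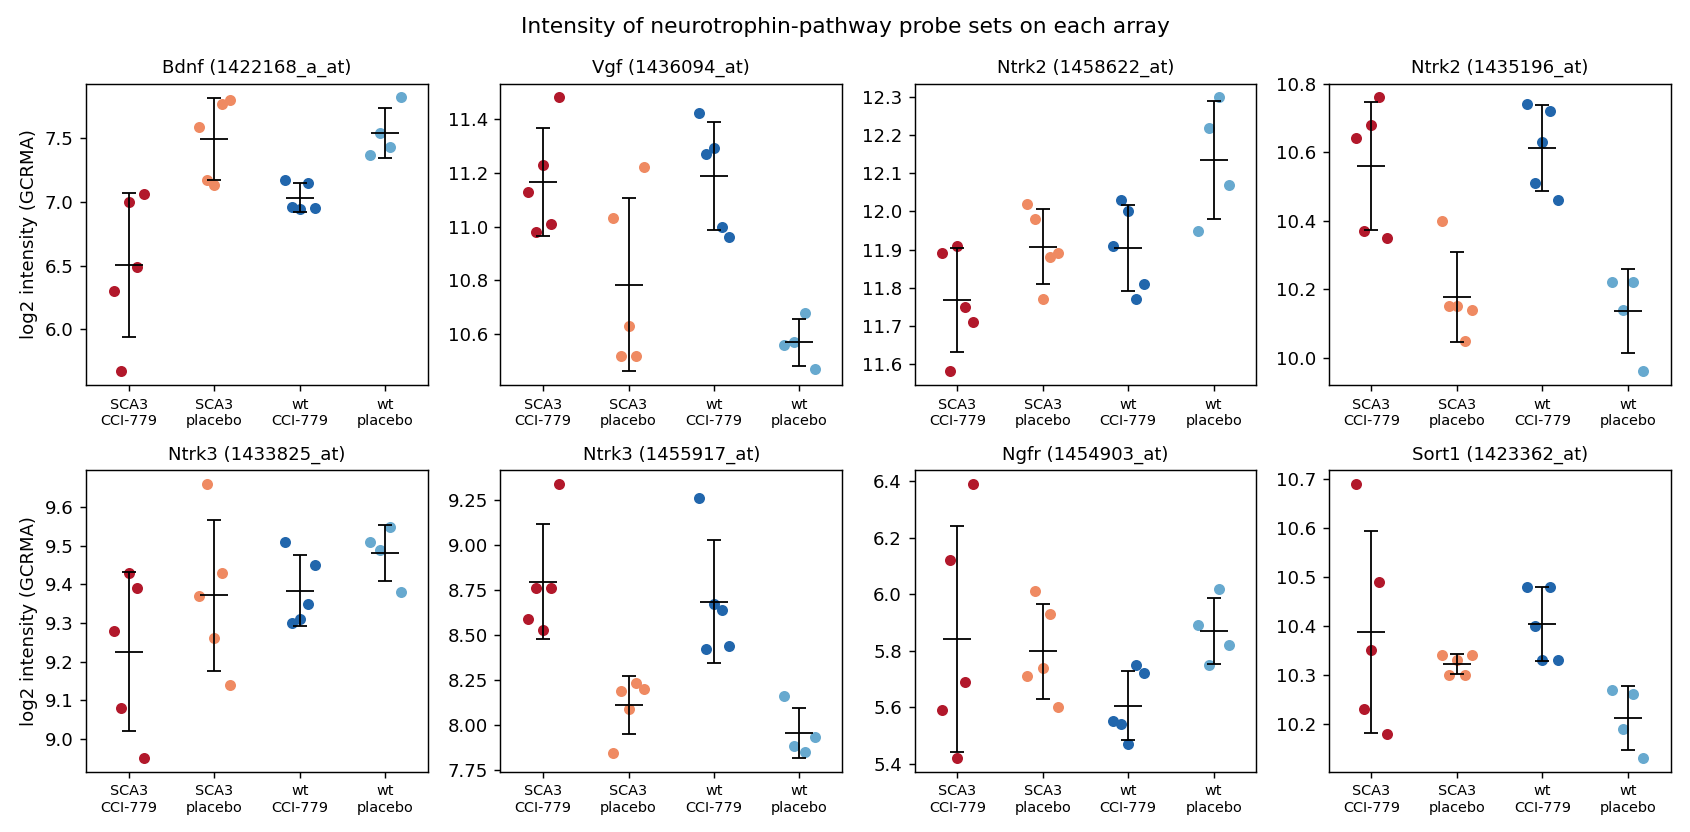
Log2 GCRMA intensity (y axis, separate range in each panel) of 8 probe sets on each of the 19 arrays, by group; points are arrays, the long line is the group mean and bars are 1 SD (n = 5, and 4 in wt placebo). Bdnf is lower under CCI-779 in both genotypes, while Ntrk2 1435196_at, Ntrk3 1455917_at and Vgf are higher in wt CCI-779 brains than on any wt placebo array.

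Receptors and Vgf supplied the probe sets that passed the test in wt brains. This contrast compares no array of the contrast that chose the genes, but the SCA3 arrays entered the fit that gave its spread. The genes were also chosen with earlier results of these data known, so the wt p-values are not fully independent of that choice. Of the 17 tested probe sets 3, or 17.6%, passed at an adjusted p under 0.05 for CCI-779 against placebo in wt brains, all 3 higher. Over all probe sets 11.9% passed, 9.78% higher and 2.11% lower, so the share among these genes was close to that of the array. The 3 were Ntrk2 1435196_at, Ntrk3 1455917_at and Vgf. The wt groups did not overlap for 6 of the 17, against 15% of all probe sets; the others of the 6 were Bdnf 1422168_a_at, Ngfr and Sort1 1423362_at. The median difference of the 17 was -0.01, against 0.05 over all probe sets.

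Ntrk2, the BDNF receptor, rose at one probe set only and the rest of its probe sets did not pass the test. Ntrk2 1435196_at read 10.74, 10.51, 10.63, 10.72 and 10.46 log2 in wt CCI-779 and 10.22, 10.14, 10.22 and 9.96 in wt placebo. With no overlap between the groups, the rise was 0.48 (SE 0.10, adjusted p = 0.00559). In SCA3 brains this probe set read 10.64, 10.37, 10.68, 10.76 and 10.35 under CCI-779 and 10.40, 10.15, 10.15, 10.05 and 10.14 under placebo, a difference of 0.39 with the placebo replicate 1 inside the range of the drug group.

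The brightest Ntrk2 probe set by mean, 1458622_at, leaned the other way. It ran from 11.77 to 12.03 log2 with a median of 11.91 on the 5 wt CCI-779 arrays, against 11.95, 12.22, 12.30 and 12.07 in wt placebo, a difference of -0.23 (adjusted p = 0.0883). In SCA3 brains it read 11.89, 11.58, 11.91, 11.75 and 11.71 under CCI-779 and 12.02, 11.98, 11.77, 11.88 and 11.89 under placebo, a difference of -0.14. The groups overlapped in both genotypes.

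Among the other 4 Ntrk2 probe sets, 1435305_at came nearest to the first. It differed by 0.25 in wt brains (adjusted p = 0.0807) and by 0.20 in SCA3 brains, and it correlated with 1435196_at at r = 0.75 over the 19 arrays. The wt differences of 1420838_at, 1437560_at and 1446712_at were 0.08, -0.05 and 0.18. Ntrk2 encodes a full-length kinase receptor and truncated receptors without the kinase domain; no source used here says which of them each probe set reads, and correlations between Ntrk2 probe sets ran between -0.32 and 0.75.

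Ntrk3, the receptor of neurotrophin-3, also split by probe set. Ntrk3 1455917_at read 9.26, 8.42, 8.67, 8.64 and 8.44 log2 in wt CCI-779 and 8.16, 7.88, 7.85 and 7.93 in wt placebo. Every drug array lay above every placebo array, and the rise was 0.73 (SE 0.17, adjusted p = 0.0105). In SCA3 brains it read 8.59, 8.76, 8.53, 8.76 and 9.34 under CCI-779 and 7.84, 8.19, 8.09, 8.23 and 8.20 under placebo, again with no overlap, and the difference was 0.68. The highest arrays in the drug groups were wt replicate 1 and SCA3 replicate 5, both with a departure in the 3′ to 5′ actin signal, and without either array the differences were 0.59 in wt and 0.55 in SCA3.

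The brightest Ntrk3 probe set by mean, 1433825_at, read 9.51, 9.30, 9.31, 9.35 and 9.45 log2 in wt CCI-779 and 9.51, 9.49, 9.55 and 9.38 in wt placebo, a difference of -0.10. In SCA3 it read 9.28, 9.08, 9.43, 9.39 and 8.95 under CCI-779 and 9.37, 9.66, 9.26, 9.43 and 9.14 under placebo, a difference of -0.15, and the groups overlapped in both genotypes. It ran against Ntrk3 1455917_at over the arrays at r = -0.44.

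The remaining 2 Ntrk3 probe sets followed single arrays. Ntrk3 1425071_s_at read 5.22, 7.15, 5.42, 5.41 and 6.99 log2 in SCA3 CCI-779 and 5.11, 5.34, 4.90, 5.46 and 5.35 in SCA3 placebo. The difference of 0.80 rested on SCA3 CCI-779 replicates 2 and 5, and without these 2 arrays it was 0.11. In wt brains it read 5.91, 5.29, 5.60, 5.43 and 5.13 under CCI-779 and 5.75, 4.74, 5.16 and 5.12 under placebo, a difference of 0.28. Ntrk3 1422329_a_at differed by -0.01 in wt brains, where the CCI-779 arrays ranged from 7.01 to 8.24 and the placebo arrays from 7.68 to 7.79. In SCA3 brains it differed by 0.21, and by -0.03 without SCA3 CCI-779 replicates 2 and 5.

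Ngfr, which encodes p75NTR, was measured by 1 tested probe set, and neither drug contrast gave it a clear difference. Ngfr 1454903_at read 5.55, 5.54, 5.47, 5.75 and 5.72 log2 in wt CCI-779 and 5.89, 5.75, 6.02 and 5.82 in wt placebo. The wt groups touched at 5.75 and were apart only beyond the second decimal, and the difference of -0.27 did not pass (SE 0.15, adjusted p = 0.258). In SCA3 brains the values were 5.59, 6.12, 5.42, 5.69 and 6.39 under CCI-779 and 5.71, 6.01, 5.74, 5.93 and 5.60 under placebo. The difference there was 0.04, and -0.23 without SCA3 CCI-779 replicates 2 and 5, the 2 highest arrays of the drug group.

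Sort1, the sorting receptor that carries proBDNF in the secretory pathway, gave opposite signs at its probe sets. Sort1 1423362_at read 10.48, 10.40, 10.33, 10.48 and 10.33 log2 in wt CCI-779 and 10.27, 10.19, 10.26 and 10.13 in wt placebo. The groups did not overlap, but the difference of 0.19 did not pass (SE 0.08, adjusted p = 0.136). Under CCI-779 in SCA3 it read 10.69, 10.23, 10.35, 10.49 and 10.18, against 10.34, 10.30, 10.33, 10.30 and 10.34 under placebo, a difference of 0.06 within a wider spread.

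The other 2 Sort1 probe sets tracked each other at r = 0.92 over the arrays and ran against the first at r = -0.47 and -0.41. Sort1 1423363_at read 4.18, 6.93, 6.17, 6.10 and 6.81 log2 in wt CCI-779 and 6.64, 6.82, 6.81 and 6.57 in wt placebo, so that replicate 1 alone stood far below. The differences of 1423363_at and 1450955_s_at in wt brains were -0.67 (adjusted p = 0.236) and -0.64 (adjusted p = 0.137), and without wt CCI-779 replicate 1 they were -0.21 and -0.36. In SCA3 brains 1423363_at read 6.03, 5.75, 6.05, 5.60 and 6.09 under CCI-779, all below the 6.74, 6.30, 6.44, 6.33 and 6.33 under placebo, a difference of -0.52. Sort1 1450955_s_at differed by -0.54 in SCA3 brains, where the CCI-779 arrays ranged from 7.27 to 8.14 and the placebo arrays from 7.90 to 8.56.

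Vgf, which is stored in dense-core granules and cut into secreted peptides, rose under CCI-779 in wt brains. Vgf 1436094_at read 11.42, 11.27, 11.29, 11.00 and 10.96 log2 in wt CCI-779 and 10.56, 10.57, 10.68 and 10.47 in wt placebo. The lowest drug array lay above the highest placebo array, and the rise was 0.62 (SE 0.14, adjusted p = 0.0115), or 1.54-fold. In SCA3 brains it read 11.13, 10.98, 11.23, 11.01 and 11.48 under CCI-779 and 11.03, 10.52, 10.63, 10.52 and 11.22 under placebo, a difference of 0.38. SCA3 placebo replicates 1 and 5 reached into the range of the drug group. The drug effects in the 2 genotypes differed by -0.24 (SE 0.20, adjusted p = 0.777). In both genotypes the Vgf mean was higher and the Bdnf mean lower under CCI-779 than under placebo.

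**Figure D2:**
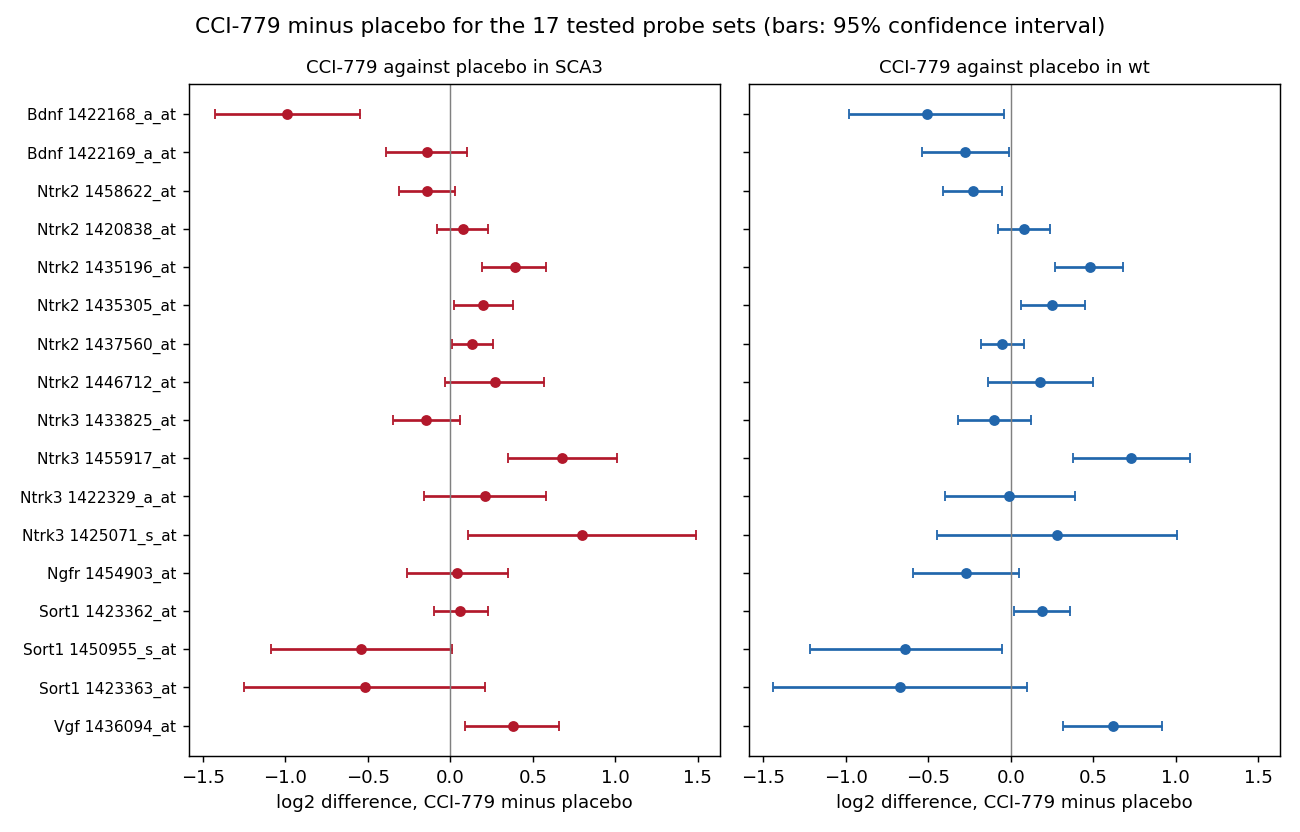
Log2 difference, CCI-779 minus placebo (x axis), of the 17 tested probe sets in SCA3 (left) and wt (right) brains; points are estimates from 1 fit of 19 arrays and bars are 95% confidence intervals. Bdnf 1422168_a_at lies at -0.99 in SCA3 and -0.51 in wt. Ntrk2 1435196_at, Ntrk3 1455917_at and Vgf lie above 0 in both. Other probe sets of Ntrk2 and Ntrk3 lie on both sides of 0, from -0.15 to 0.80 in SCA3 and from -0.23 to 0.28 in wt. The SCA3 panel is a description.

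For CCI-779 against placebo in SCA3 brains 3 of the 17 probe sets were past the threshold, 2 higher and 1 lower, the lower one being Bdnf 1422168_a_at, on which the genes were selected. Over all probe sets 15.2% were past it, 10.2% higher and 4.95% lower. The groups did not overlap for 4 of the 17, against 13.2% of all probe sets, and the median difference of the 17 was 0.08, against 0.01. These counts describe the contrast that chose the genes and are no test of them. The SCA3 and wt drug contrasts compare no array in common, but the same fit gave the spread of both. The scaling of the arrays moved the background. As deposited, 67.4% of all calls in SCA3 and 82.2% in wt were higher. These shares were 53% and 61.3% after quantile normalization, and 44.7% and 45.2% once every array was centred on its own median. The same 3 wt probe sets passed under both of these scalings.

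**Figure D3:**
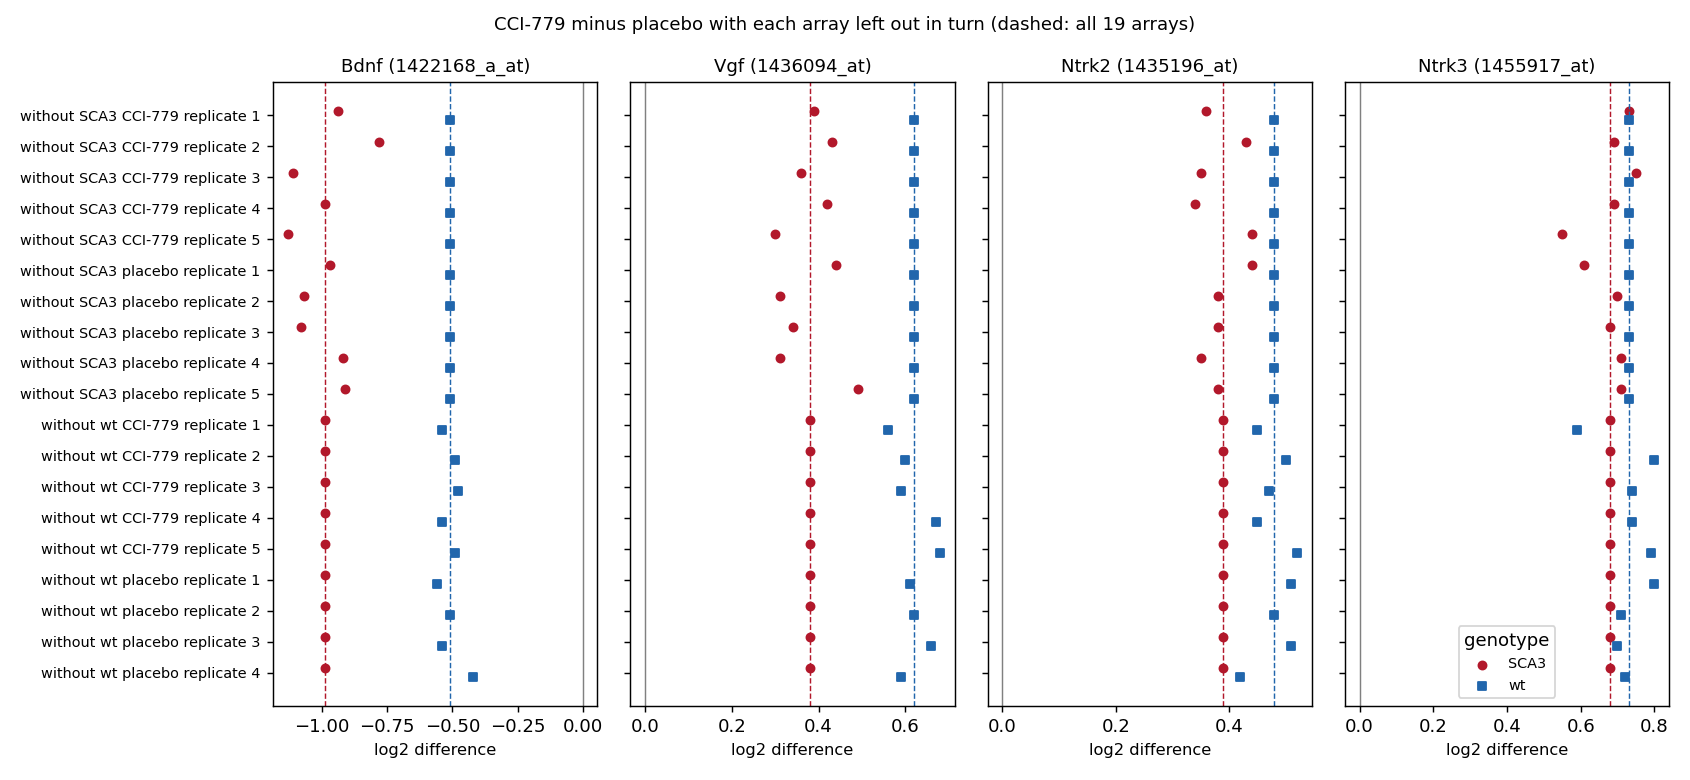
Log2 difference, CCI-779 minus placebo (x axis), of Bdnf 1422168_a_at, Vgf, Ntrk2 1435196_at and Ntrk3 1455917_at with each of the 19 arrays left out in turn (rows), in SCA3 (red circles) and wt (blue squares) brains; dashed lines are the values from all arrays. No omission turned a sign, and Bdnf in SCA3 ranged from -1.13 to -0.78.

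The transgene without drug left no difference at these genes that passed the test. For SCA3 against wt under placebo 0 of the 17 passed in limma, 1 had an unadjusted p under 0.05 against 5.75% of all probe sets, and 0.00977% of all probe sets passed. The differences ran from -0.28 to 0.22. The 1 with a low unadjusted p was Ntrk2 1458622_at, at 11.91 ± 0.10 in SCA3 placebo (SD, n = 5) and 12.13 ± 0.15 in wt placebo (n = 4), a difference of -0.22 (SE 0.09, adjusted p = 0.747). Vgf differed by 0.22 (SE 0.14, 95% confidence interval -0.09 to 0.52, adjusted p = 0.94), and 1 probe set, Sort1 1423362_at, had groups apart, against 2.5% of all probe sets.

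Under CCI-779 0 of the 17 differed between SCA3 and wt (1 at an unadjusted p under 0.05, Bdnf 1422168_a_at, where 15.4% of all probe sets were), and again 0.00977% of all probe sets passed. The groups were apart for 0 of the 17, against 2.38% of all probe sets. Adjusted p-values ran from 0.254 to 0.954. For the difference between the 2 drug effects 0 of the 17 passed in limma, 0 had an unadjusted p under 0.05 against 7.68% of all probe sets, and 0% of all probe sets passed; the lowest adjusted p was 0.651, for Ntrk2 1437560_at at 0.18 (SE 0.09). Both contrasts hold the SCA3 CCI-779 arrays.

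Around these genes, 10 lists of genes of the pathway were counted, each gene by its brightest tested probe set. Of all 10454 genes 11% rose and 6.09% fell under CCI-779 in SCA3, and 11.5% rose and 1.64% fell in wt; none of the 10 lists held a gene that passed for SCA3 against wt under placebo. The Ntf5 probe set 1440353_at, at a mean of 2.66, was not tested.

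Partners of the pathway at the receptor were counted beside all genes, of which 11% rose and 6.09% fell in SCA3. In wt 11.5% rose and 1.64% fell. Neither list was tested against these shares. Of 9 sortilin-family and p75NTR partner genes 1 rose in SCA3, Maged1, a p75NTR binding protein, by 0.17 (SE 0.05, adjusted p = 0.0453), and 0 rose or fell in wt. Of 17 adaptors of Trk receptors 2 rose and 0 fell in each genotype. Rapgef1, a Rap exchange factor recruited by Crk, rose by 0.68 in SCA3 (SE 0.16, adjusted p = 0.0102) and by 0.60 in wt (SE 0.17, adjusted p = 0.0311). Kidins220, a Trk substrate, rose by 0.21 in SCA3, and the adaptor Crk by 0.21 in wt. None of these calls held without the arrays that stood apart, SCA3 CCI-779 replicates 2 and 5 or wt CCI-779 replicate 1. Over all probe sets the calls then went from 3107 to 1203 in SCA3 and from 2435 to 1713 in wt. A call lost in this way, here and in the lists below, is thus not particular to its gene.

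Of 9 genes for cleavage and secretion of proneurotrophins 1 rose and 2 fell in SCA3, and 1 rose and 0 fell in wt. Hap1, which binds huntingtin and takes part in transport of BDNF vesicles, rose by 0.85 in SCA3 (SE 0.16, adjusted p = 0.00267). Plat, the tissue plasminogen activator that starts the extracellular cleavage of proBDNF through plasmin, fell by 0.40 in SCA3 (SE 0.11, adjusted p = 0.0215), and Cadps2, which promotes release of dense-core vesicles, fell by 0.28. Both of these falls were lost without SCA3 CCI-779 replicates 2 and 5, and Hap1 was not. In wt Cadps, a relative of Cadps2, rose by 0.19 (SE 0.05, adjusted p = 0.0218).

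Downstream, the PI3K-AKT arm held more rising genes than falling ones in both genotypes, as did all genes together. Of all genes 11% rose and 6.09% fell in SCA3, and 11.5% rose and 1.64% fell in wt. The list was not counted again under the other scalings of the arrays. Of 13 genes 4 rose and 1 fell in SCA3, and 3 rose and 0 fell in wt. The kinase Akt1 rose by 0.66 in SCA3 (SE 0.12, adjusted p = 0.00157) and by 0.60 in wt (SE 0.12, adjusted p = 0.0058). The PI3K regulatory subunit Pik3r1 rose by 0.42 in SCA3 (SE 0.09, adjusted p = 0.00432) and by 0.51 in wt. Gsk3b, a kinase that AKT inhibits, rose by 0.47 in SCA3 and differed by -0.05 in wt. Under placebo Gsk3b differed by -0.37 between SCA3 and wt (adjusted p = 0.556). Pdpk1, which phosphorylates AKT, fell by 0.28 in SCA3 and differed by -0.13 in wt, where it did not pass. The counts without the arrays that stood apart were 4 and 0 in SCA3 and 3 and 0 in wt.

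Genes of the ERK arm and its feedback inhibitors moved both ways in SCA3, as did all genes together. Across the array 11% of genes rose and 6.09% fell in SCA3, and 11.5% rose and 1.64% fell in wt. Neither list was tested against these shares. Of 8 Ras-ERK and RSK kinase genes 1 rose and 1 fell in SCA3, Map2k2 by 0.43 (SE 0.11, adjusted p = 0.0165) and Map2k5 by -0.40 (SE 0.10, adjusted p = 0.0102), and neither passed without replicates 2 and 5. In wt 1 rose, Rps6ka6, an RSK family kinase gene, by 0.39. Of 12 feedback inhibitors 3 rose and 2 fell in SCA3 and 4 rose and 1 fell in wt. Spred1, which holds back Ras, rose by 0.57 in SCA3 (SE 0.15, adjusted p = 0.015) and by 0.79 in wt (SE 0.15, adjusted p = 0.00447). Spry2, a receptor tyrosine kinase feedback inhibitor, fell by 0.39 in SCA3 (SE 0.08, adjusted p = 0.00548) and by 0.48 in wt (SE 0.09, adjusted p = 0.00341). The ERK phosphatase Dusp7 rose by 0.85 and Spry4 fell by 0.39 in SCA3, and the ubiquitin ligase Cblb rose by 0.39 in wt, a call lost without wt CCI-779 replicate 1. The SCA3 count was 1 and 1 without SCA3 CCI-779 replicates 2 and 5, and Spred1 and Spry4 no longer passed there.

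Genes that regulate Bdnf transcription included 2 that rose in both genotypes, and genes known to respond to activity or BDNF mostly did not pass. Of all genes 11% rose and 6.09% fell in SCA3, and 11.5% rose and 1.64% fell in wt, so most genes of the array did not pass either. Neither list was tested against these shares. Of 14 regulators of Bdnf transcription, which include the kinase genes Camk2a and Camk4 beside transcription factors, 2 rose and 0 fell in SCA3, and 2 rose and 1 fell in wt. Usf2, an E-box factor, rose by 0.81 in SCA3 (SE 0.11, adjusted p = 0.000285) and by 0.66 in wt (SE 0.11, adjusted p = 0.00233). Crtc1, a coactivator of CREB, rose by 0.62 in SCA3 (SE 0.12, adjusted p = 0.00302) and by 0.70 in wt (SE 0.13, adjusted p = 0.00335), and these counts were the same without the arrays that stood apart. Camk2a, a calcium-dependent kinase of synapses, fell by 0.51 in wt.

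Of 18 activity- and BDNF-regulated genes 0 rose and 2 fell in SCA3, and 0 rose or fell in wt. Those in SCA3 were Nr4a2, an immediate-early nuclear receptor, by -0.44 (SE 0.10, adjusted p = 0.00774), and Homer1, a synaptic scaffold gene, by -0.30 (SE 0.09, adjusted p = 0.0412), and neither passed without replicates 2 and 5. The medians of the list, with each gene by its brightest tested probe set, were -0.10 in SCA3 and -0.05 in wt. Over all tested probe sets, which is an unlike set, they were 0.01 and 0.05. A median over all genes was not taken, and the list was not tested against these values. Of 9 other granin and dense-core granule genes, the class of Vgf, 2 rose in SCA3 and 1 in wt. Ptprn, a membrane protein of these granules, rose by 0.67 in SCA3 (SE 0.13, adjusted p = 0.00333) and by 0.55 in wt (SE 0.14, adjusted p = 0.018), and Pcsk1n, a proprotein convertase inhibitor, rose by 0.53 in SCA3, a call lost without replicates 2 and 5. Of 15 genes of other neurotrophic factors and their receptors 1 rose in SCA3, Gfra4, a GDNF family receptor, by 0.61 (SE 0.17, adjusted p = 0.0242), a call lost without replicates 2 and 5, and 0 rose or fell in wt.

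**Figure D4:**
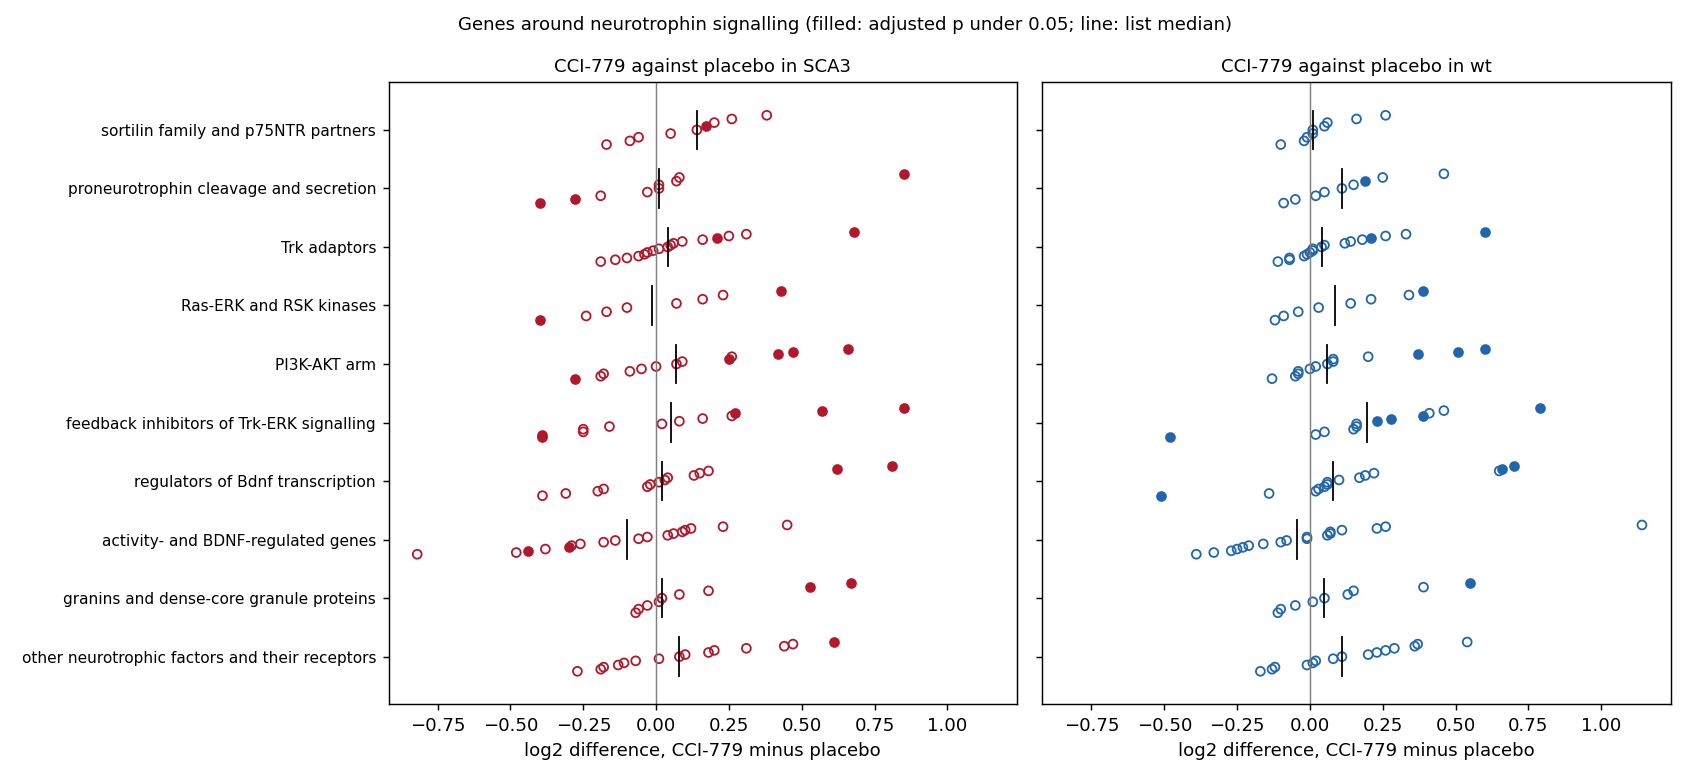
Log2 difference, CCI-779 minus placebo (x axis), of each gene of 10 pathway lists in SCA3 (left) and wt (right) brains; filled points passed at an adjusted p under 0.05 and the short line is the list median. Medians lie between -0.10 and 0.19. The PI3K-AKT list of 13 genes holds 4 filled points above 0 in SCA3 and 3 in wt, where 11% and 11.5% of all genes rose.

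Markers of some other brain cells moved in the same comparisons, in which 11% of all genes rose and 6.09% fell in SCA3, and 11.5% rose and 1.64% fell in wt. Of 10 oligodendrocyte markers 6 fell in SCA3 under CCI-779, with a summed level of 16.14 to 16.29 log2 against 16.35 to 16.74 under placebo, and 0 passed in wt, where the sum was 16.07 to 16.36 under CCI-779 and 16.30 to 16.58 under placebo. Of 9 microglial markers 5 fell in SCA3 and 3 in wt, with sums of 11.60 to 11.99 in SCA3 CCI-779 against 12.12 to 12.24 in SCA3 placebo, and 11.60 to 11.91 in wt CCI-779 against 12.12 to 12.30 in wt placebo. Without SCA3 CCI-779 replicates 2 and 5, 5 oligodendrocyte and 1 microglial markers fell in SCA3, and without wt CCI-779 replicate 1, 2 microglial markers fell in wt. The shares of all genes above are from the fit of all arrays. In the reduced SCA3 fit 1203 of all probe sets passed, 914 of them higher, against 3107 and 2094 with all arrays. In the reduced wt fit 1713 passed, 1326 of them higher, against 2435 and 2002. In these bulk samples fewer cells of a type and less RNA per cell cannot be told apart. The 8 markers of cortical and hippocampal excitatory neurons, the cells known for most Bdnf in the forebrain, gave 0 calls in either genotype, with sums of 12.26 to 13.23 in SCA3 CCI-779 against 12.15 to 12.43 in SCA3 placebo, and 12.20 to 12.47 in wt CCI-779 against 12.14 to 12.34 in wt placebo. Of 7 inhibitory neuron markers 2 rose in each genotype, and of 8 meningeal markers 3 rose in SCA3 and 1 in wt. Of 10 astrocyte markers 2 rose and 1 fell in SCA3 and 3 rose in wt, and of 6 striatal markers 2 rose in SCA3 and 1 in wt. With the arrays that stood apart left out, 1 inhibitory neuron, 2 meningeal, 2 astrocyte and 0 striatal markers rose in SCA3, and 2, 1, 1 and 0 rose in wt. Of 3 brainstem and hindbrain markers 1 rose in each genotype, and with those arrays left out 0 rose in SCA3 and 1 in wt. The 9 cerebellar, 5 endothelial, 3 hypothalamic and 3 blood cell markers gave 0 calls in either drug contrast. The part of these cell types in the values of Bdnf, its receptors and Vgf was not tested.

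The genes whose pattern over the 19 arrays was most like that of a member were ranked by Pearson r among 10448 genes, as a description of arrays that share the drug groups. For Bdnf 1422168_a_at they were Smim15 (r = 0.92), Il18 (0.88), Chordc1 (0.88), Fscn1 (0.87) and Gmfb (0.87). After subtracting the group means these r were 0.77, 0.72, 0.71, 0.59 and 0.70. For Vgf they were Chtop (0.92), Dlgap1 (0.91) and Fmn2 (0.91), with 0.80, 0.83 and 0.76 within groups. For Ntrk2 1458622_at the most alike was Egr3, an immediate-early transcription factor gene that BDNF induces in neurons (r = 0.93, and 0.88 within groups), followed by Cap2 (0.90 and 0.85) and Actr6 (0.88 and 0.78).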

How the data were processed

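The authors deposited 1 table of probe set intensities from 19 Affymetrix arrays of mouse brain RNA, on a linear scale and normalized by GCRMA, per the submitters' processing notes; the version and settings are not given in the sources used here. Values were put on the log2 scale here, without a pseudocount. Control probe sets (64) were left out, probe sets with a mean log2 under 4 over all arrays were not tested, and limma 3.58.1 in R 4.3.3 fitted 4 group means to 20473 probe sets (lmFit, eBayes, 15 residual degrees of freedom) for 5 comparisons that share arrays. An adjusted p under 0.05 after Benjamini-Hochberg adjustment over all probe sets was called; the script was tested on simulated data.

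Gene names came from the array's annotation, which gave 1 symbol to 34945 probe sets, several to 932 and none to 9160. The genes described and all lists were chosen with earlier results of these data known. From each pathway list, up to 2 rising and 2 falling called genes with the largest change were named in each drug contrast. A gene named for 1 genotype may thus have moved in the other genotype as well. Replicate numbers were given in label or accession order, and one wt CCI-779 label carries none; same-numbered arrays deviated together at correlations of -0.2 to 0.29 over 18 pairs, with 9 over 0.1, so numbers were not used as pairs. Alternatives were other filters, scalings, variance models, thresholds, array weights and left-out arrays; pathway counts without 3 arrays that stood apart were added after seeing the data.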

Additional observations from a re-analysis of the deposited data

Results flagged for a closer look

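In 68 groups of 4 or 5 arrays (17 probe sets in 4 groups), 6 held an array whose gap to its nearest neighbour was large for the range of the group; chance gives about 1 in 20. Bdnf 1422169_a_at read 4.69 log2 in SCA3 CCI-779 replicate 4, against 5.11 to 5.13 on the other 4 arrays of that group. In the same array Ntrk2 1420838_at read 11.40, against 11.12 to 11.18. Ntrk2 1435305_at read 10.49 in SCA3 CCI-779 replicate 3, against 10.26 to 10.31. In SCA3 placebo replicate 1, Ntrk2 1435196_at read 10.40, against 10.05 to 10.15, and Ntrk2 1446712_at read 4.32, against 4.67 to 4.70. Ntrk2 1446712_at read 5.13 in wt CCI-779 replicate 1, against 4.68 to 4.79. Of the 6, only Ntrk2 1435196_at belongs to a probe set that passed the test in wt brains, and the array that stood apart there is an SCA3 placebo array.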

How the results depend on the processing

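The count of 3 probe sets for CCI-779 against placebo in wt brains was 1 at a threshold of 0.01, 5 at 0.1, and 3 to 4 with 1 array left out. Without wt CCI-779 replicate 5 the added call was a rise of Ntrk2 1435305_at (0.30, adjusted p = 0.0492). Without wt placebo replicate 1 it was a fall of Ntrk2 1458622_at (-0.29, adjusted p = 0.0402). The SCA3 count of 3 was 5 with array weights and 3 to 5 with 1 array left out, 5 being the count without wt CCI-779 replicate 1, and 2 without SCA3 CCI-779 replicates 2 and 5. The counts for the other 3 comparisons were 0 in every alternative. With the replicate number as a block the 5 counts were 3, 3, 0, 0 and 0, and no call changed. Ntrk2 1435196_at, Ntrk3 1455917_at and Vgf passed in wt in each of the 19 fits with 1 array left out. Bdnf 1422168_a_at in wt passed with array weights (-0.59, adjusted p = 0.0432), with only wt arrays (0.0262) and with SCA3 CCI-779 replicates 2 and 5 left out (0.0463), and its adjusted p ranged from 0.0262 to 0.305; in SCA3 its difference was -0.90 without replicates 2 and 5. Some signs turned. In the SCA3 drug contrast, without SCA3 CCI-779 replicates 2 and 5, Ntrk3 1422329_a_at (0.21) was -0.03 and Ngfr (0.04) was -0.23, and Sort1 1423362_at (0.06) was -0.01 without replicate 1. Ntrk2 1420838_at in wt (0.08) was -0.03 after centring, Ntrk3 1422329_a_at in wt (-0.01) was 0.20 with array weights and 0.17 with 3 arrays left out, and Vgf in SCA3 against wt under CCI-779 (-0.02) was 0.01 after centring and 0.00 with array weights. With 1 array left out, Ntrk3 1422329_a_at in wt ranged from -0.13 to 0.17, Ntrk2 1437560_at in wt from -0.09 to 0.00, Bdnf 1422168_a_at and 1422169_a_at in SCA3 against wt under placebo from -0.13 to 0.04 and from -0.13 to 0.00, and Vgf and Bdnf 1422169_a_at in SCA3 against wt under CCI-779 from -0.10 to 0.04 and from -0.01 to 0.16. The cause of these shifts was not tested. Over all probe sets the wt count of 2435 was 1364 with only wt arrays, 3412 with array weights and 1343 to 2717 with 1 array left out, and the SCA3 count of 3107 was 1203 without SCA3 CCI-779 replicates 2 and 5. The fit with only the arrays of the compared groups gave no separate value for the difference between drug effects, which uses all groups. Signals near the filter, such as Bdnf 1422169_a_at, limit what these arrays can show.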
